A study of Mus musculus with 23 samples.

Results

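The Peg10-Sgce cluster is a group of imprinted genes on proximal mouse chromosome 6, and its members were chosen by gene symbol: Peg10, Sgce, Calcr, Pon3, Pon2, Ppp1r9a, Asb4, Tfpi2 and Casd1, which are 9 of the 26183 genes counted. RNA-seq read counts of the 9 genes were compared across 23 whole embryos at E13.5, with 1 library per embryo. The embryos were 129/DBA hybrids, from mothers heterozygous or homozygous for a mutant Zfp57 allele and from Zfp57+/- fathers backcrossed to DBA/2J. The M+Z+ embryos (6 female, 4 male) had Zfp57 in the oocyte and in the embryo. The M-Z+ embryos (3 female, 3 male) lacked Zfp57 in the oocyte and received a functional copy from the father. The M-Z- embryos (4 female, 3 male) lacked it in both. The titles give the genotype as Zfp57-/+ in M+Z+ as in M-Z+ libraries, the count columns call the M+Z+ embryos WT, and whether these controls carried a mutant allele was not settled by the sources used here. Whole embryos hold many tissues, so fewer cells of a type and less RNA per cell cannot be told apart in any value below. The libraries are separate embryos, and litters were not given, so p-values measure the spread between these embryos.

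Imprinted genes are expressed mainly from one parental copy, as set by a methylated control region. In this cluster the control region is methylated on the maternal copy and lies at the shared promoter of Peg10 and Sgce, which are paternally expressed. Several flanking genes, among them Tfpi2, Asb4, Calcr, Ppp1r9a and the paraoxonases, are known for preferential maternal expression in some tissues, above all in placenta or brain. Zfp57 encodes a zinc finger protein that binds a methylated TGCCGC motif and keeps methylation at many control regions. Loss of methylation on a silent maternal copy is known to activate it, so a gene of this kind can gain expression from a second copy. By bisulfite sequencing of other embryos, the paper reports that the Peg10 control region mostly kept its methylation in M-Z- embryos of both sexes. The part of this in the values below was not tested.

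On mm9, the members spanned 1747 kb of chromosome 6. From the proximal end, Calcr lay at chr6:3635678-3714713 (minus strand), Tfpi2 at chr6:3912589-3938936 (minus), Casd1 at chr6:4550911-4593355 (plus) and Sgce at chr6:4624350-4697204 (minus). Peg10 lay head to head with Sgce at chr6:4697306-4710516 (plus), with 101 bases between both annotated starts. Ppp1r9a followed at chr6:4852975-5115661 (plus), Pon3 at chr6:5166256-5206233 (minus), Pon2 at chr6:5214620-5248340 (minus) and Asb4 at chr6:5333386-5383021 (plus). No exon of a member overlapped an exon of another gene on either strand, so none shared counts with an overlapping gene. All 9 members passed the filter on low counts in each fit.

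Total counts were 15.2 to 24.1 M per embryo, and no 2 embryos had identical counts. The Y-linked genes matched the labelled sex in every embryo (0 mismatches). Of 10 markers of trophoblast, a placental cell type in which Peg10 is needed, Prl2c2 had 0 counts in all 23 embryos and 8 others had at most 9 counts in any embryo. The tenth, Tfap2c, which is also expressed outside the placenta, stood at 9.85 CPM (counts scaled to the library total) on average. The sum of the 10 markers was 7.40 to 13.4 CPM per embryo.

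Levels can be compared between genes only per length, for which TPM was used (counts per exon base, scaled to the same sum in each embryo). Peg10, a retrotransposon-derived gene needed for placental development, was the highest member at 164 ± 20.9 TPM (SD, n = 23 embryos), above 96.9% of all genes. Casd1 (42.5 ± 3.73 TPM), which acetylates sialic acids, Asb4 (40.5 ± 6.80 TPM), a SOCS box protein of ubiquitin ligases, and Sgce (39.1 ± 2.53 TPM), the epsilon-sarcoglycan of the dystrophin complex, lay close together. Casd1 exceeded Asb4 in 16 of 23 embryos and Asb4 exceeded Sgce in 11 of 23, so the order of these 3 was within their spread. Pon2 (34.7 ± 3.14 TPM) was below Sgce in 17 of 23 embryos with overlapping ranges. Ppp1r9a, which encodes the actin-binding scaffold neurabin, stood at 23.2 ± 2.69 TPM and was below Pon2 in 23 of 23 embryos. Pon3 (5.66 ± 0.785 TPM), Tfpi2 (3.89 ± 0.945 TPM), a protease inhibitor, and Calcr (0.940 ± 0.293 TPM), the calcitonin receptor, were lower, and each exceeded the next in all 23 embryos. Calcr rested on 17 to 49 counts per embryo and Tfpi2 on 32 to 84, against 6397 to 10997 for Peg10.

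**Figure D1:**
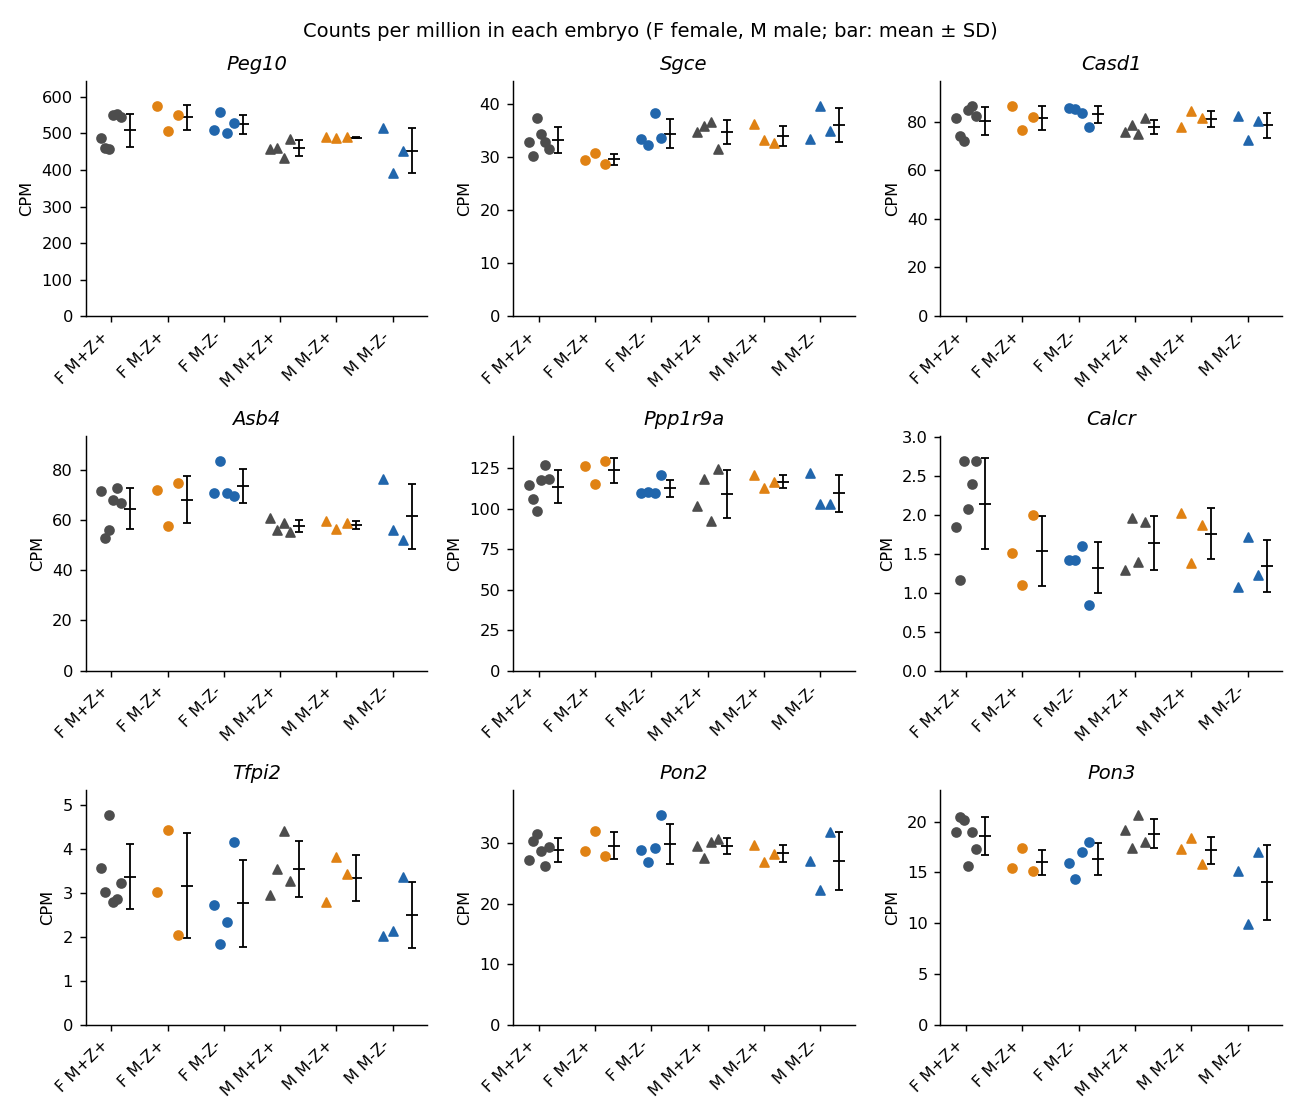
Library-scaled counts (CPM, y axis from 0) of the 9 members in each of 23 embryos, by sex and genotype on the x axis; circles are females, triangles are males and bars give the mean with its SD. Groups of the same sex overlap except for Pon3 (male M-Z- and M+Z+), Peg10 (male M-Z+ and M+Z+) and Sgce (female M-Z- and M-Z+). The lowest Pon3 value, 9.90 CPM, is a male M-Z- embryo.

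The targeted gene was checked first. In females, Zfp57 averaged 66.9 ± 17.0 CPM (SD) over 6 M+Z+ embryos, 71.4 ± 6.28 over 3 M-Z+ embryos and 33.05 ± 0.856 over 4 M-Z- embryos. The male averages were 76.5 ± 9.90, 70.7 ± 3.78 and 29.7 ± 5.03 CPM over 4, 3 and 3 embryos. All 7 M-Z- embryos lay below all others, at 25.5 to 35.3 CPM, so reads of the gene were reduced but not absent. It was lower in M-Z- embryos by a log2 fold change of -1.18 ± 0.10 (SE, both sexes, adjusted p = 1.73e-08 by edgeR's quasi-likelihood test). Plagl1, Snrpn and Usp29, paternally expressed genes of other imprinted regions where the paper reports lost methylation in M-Z- embryos, served as comparators. They rose in M-Z- embryos by 1.05 ± 0.06, 0.96 ± 0.06 and 0.98 ± 0.06 on the log2 scale in both sexes together (adjusted p = 2.08e-12, 1.01e-10 and 1.08e-11 by edgeR).

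Peg10 did not follow the comparators. In female M+Z+ embryos Peg10 ranged from 458 to 554 CPM with a median of 516 (n = 6). Peg10 was 487, 459 and 458 CPM in their replicates 1 to 3 and 549, 554 and 545 CPM in replicates 4 to 6. In female M-Z- embryos it was 511, 560, 501 and 530 CPM, all inside the female M+Z+ range but the second, which lay just above. In males it was 457, 461, 432 and 486 CPM in M+Z+ and 516, 391 and 452 CPM in M-Z- embryos, so that M-Z- embryos lay above, below and within the M+Z+ range. The log2 fold change of Peg10 in M-Z- against M+Z+ was 0.04 ± 0.06 in females, 0.02 ± 0.08 in males and 0.03 ± 0.05 in both sexes together. Its 95% interval in both sexes together, -0.07 to 0.13, is a fold of 0.953 to 1.09 (adjusted p = 0.738 by edgeR). The interval lay below those of Plagl1 (0.93 to 1.16), Snrpn (0.83 to 1.097) and Usp29 (0.86 to 1.097). With no M+Z+ embryo numbered below 4, Peg10 was at -0.06 in females and at -0.05 in both sexes together.

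Sgce, transcribed away from Peg10 across the same control region, gave a like result. Female M+Z+ embryos ranged from 30.2 to 37.4 CPM with a median of 32.9 (n = 6), and female M-Z- embryos stood at 33.4, 32.2, 38.4 and 33.6 CPM. Males stood at 34.7, 35.9, 36.5 and 31.5 CPM in M+Z+ and at 33.4, 39.6 and 34.9 CPM in M-Z- embryos. The groups overlapped in both sexes. The log2 fold change was 0.05 ± 0.06 in females, 0.10 ± 0.10 in males and 0.07 ± 0.06 in both sexes together, with a 95% interval of -0.04 to 0.19 (adjusted p = 0.442 by edgeR).

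Within embryos, the log2 ratio of the member to the comparator gives the same values without a scaling between embryos, as a description, since the comparators were known to rise. Against Plagl1, the log2 ratio of Peg10 was lower in M-Z- than in M+Z+ embryos by 0.95 in females and by 1.09 in males. The 12 differences, of Peg10 and Sgce against each comparator in each sex, were -0.82 to -1.09.

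**Figure D2:**
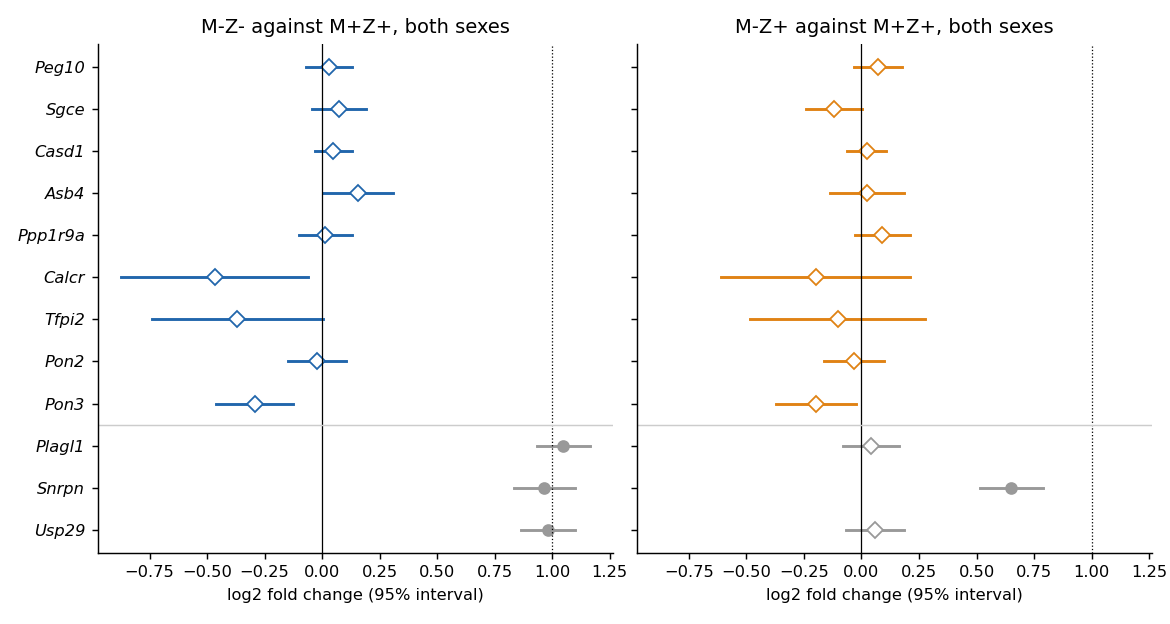
Log2 fold change with its 95% interval (x axis, edgeR, both sexes) of the 9 members and of 3 comparators below the grey line, for M-Z- (left) and M-Z+ (right) against M+Z+; filled circles were called, open diamonds were not, and the dotted line marks a doubling. In M-Z- the members lie between -0.47 and 0.16, and Plagl1, Snrpn and Usp29 at 0.96 to 1.05, close to the doubling.

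In M-Z- against M+Z+ embryos, edgeR called 0 of 9 members in females (against 0.563% of all tested genes), 0 of 9 in males (0.39%) and 0 of 9 in both sexes together (2.31%). Genes were called at an adjusted p below 0.05 if the log2 fold change also reached 0.5 in either direction. At an unadjusted p below 0.05 there were 2 members in females (15.5% of all genes), 1 in males (17.0%) and 3 in both sexes together (26.4%), and DESeq2 called 0 in each. Without a minimum size, 0 members passed in females (1.26%) and in males (0.45%), and 1, Pon3, in both sexes together (10.6%). In CPM, the groups separated in 0 of 9 members in females (4.29%) and in 1, again Pon3, in males (10.8%). The median log2 fold change of the members was 0.01 in both sexes together, against -0.00 for all genes tested. Counts of this size on 9 genes are near the background.

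Loss of Zfp57 from the oocyte alone gave 0 called members as well. In M-Z+ against M+Z+ embryos, edgeR and DESeq2 both called 0 of 9 in females (0.0593% of all genes by edgeR), in males (0.048%) and in both sexes together (0.0759%), with 2 (6.64%), 0 (7.86%) and 1 (14.3%) members at an unadjusted p below 0.05 by edgeR. Without a minimum size the counts were also 0, against 0.0992% of all genes in both sexes together. Peg10 stood at 575, 507 and 550 CPM in female M-Z+ and at 489, 486 and 490 CPM in male M-Z+ embryos, with log2 fold changes of 0.08 ± 0.07 and 0.07 ± 0.08. Male M-Z+ embryos lay closely together, the lowest at 486.5 CPM and the highest male M+Z+ embryo at 485.97 CPM, and such a separation of groups was found for 1 of 9 members and 12.4% of all genes in males (0 of 9 and 3.27% in females). Sgce stood at 29.4, 30.7 and 28.6 CPM in female M-Z+ embryos, the lowest group mean of the 6 groups (29.6 ± 1.03, SD). Its log2 fold change was -0.18 ± 0.07 against female M+Z+ (unadjusted p = 0.0233, adjusted p = 0.723 by edgeR). Female M-Z- exceeded female M-Z+ embryos in Sgce without overlap, by 0.23 ± 0.08 (unadjusted p = 0.00908, adjusted p = 0.353 by edgeR). Such a separation held for 1 of 9 members and 10.2% of all genes, and in males for 0 members and 13.0%. Between M-Z- and M-Z+, edgeR and DESeq2 called 0 of 9 members in females (0.196% of all genes by edgeR, or 0.243% without a minimum size) and 0 in males (0.15%). At an unadjusted p below 0.05 edgeR had 1 member in females (8.64%) and 0 in males (9.5%).

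The ratio of Peg10 to Sgce compares both genes of the shared promoter within an embryo, per length. Among females it was 3.44 to 4.86 in M+Z+, 4.65 to 5.50 in M-Z+ and 3.67 to 4.88 in M-Z- embryos. Among males it was 3.33 to 4.34 in M+Z+, 3.81 to 4.21 in M-Z+ and 2.78 to 4.34 in M-Z- embryos. The lowest ratio was that of male M-Z- replicate 2, which had the lowest Peg10 and the highest Sgce value in CPM of all 23 embryos. The log2 ratio in M-Z- against M+Z+ differed by -0.00 in females and by -0.08 in males (exact two-sided permutation p = 0.995 and 0.714). The largest differences were those of female M-Z+, 0.26 above M+Z+ (exact p = 0.0714) and 0.27 above M-Z- (exact p = 0.114), and with 6 such tests their adjusted p was 0.343. No difference in the ratio between genotypes passed its test. That of male M-Z- against male M-Z+ embryos could not, since 3 against 3 embryos give a two-sided exact permutation p of at least 0.1.

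Peg10 and Sgce varied in opposite directions across embryos when scaled by library. Over 23 embryos the Pearson r of their TMM-scaled log2 CPM was -0.62 and Spearman's rho -0.55 (permutation p = 0.00143 and 0.00765, adjusted over 36 pairs of members 0.00858 and 0.0344). Without the 2 embryos farthest from the median of Sgce, r was -0.47, and it was -0.40 in females, -0.75 in males and -0.55 about the group means. On log2 TPM it was only -0.25, so the strength of the relation depends on the scaling. The ratio, which no scaling touches, moved with a contrast of long and short genes, taken for each embryo as the median deviation in log2 CPM of 2808 genes with at least 5120 exon bases minus that of 2809 genes with at most 2146. Peg10 has 6666 exon bases and Sgce 1875. The ratio had r = 0.81 and rho = 0.87 with the contrast (permutation p = 1e-05 for both, the smallest they can give, adjusted over 19 relations 6.33e-05 and 9.5e-05), and r was 0.86 without the 2 farthest embryos, 0.80 in females, 0.62 in males and 0.66 about the group means. The contrast was highest in female M-Z+ embryos (0.12 ± 0.08, SD, n = 3), the group with the highest ratio, and lowest in male M-Z- embryos (-0.10 ± 0.10, n = 3). Its part in the ratio and in the levels of Peg10 was not tested.

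**Figure D3:**
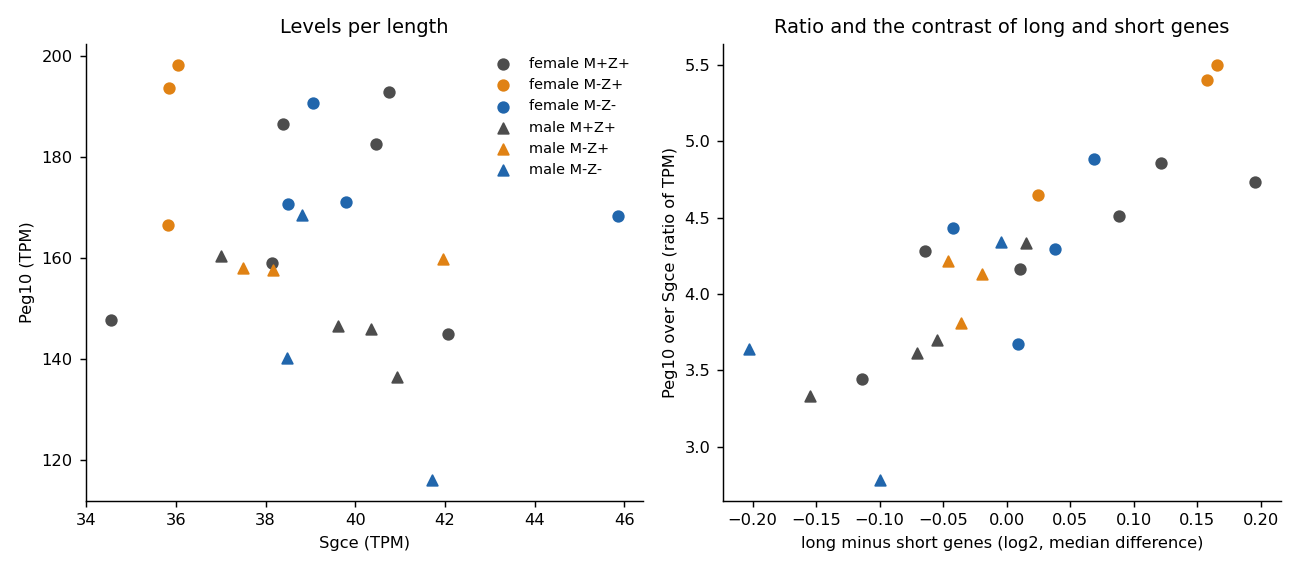
Left, Peg10 against Sgce, both in TPM, and right, the ratio of Peg10 to Sgce against the contrast of long and short genes (log2), in each of 23 embryos; colours give the genotype, circles females and triangles males. The ratio runs from 2.78 to 5.50 and is higher where long genes are higher, and 2 female M-Z+ embryos lie at the upper right.

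Of the 9 members, 5 were related to the same contrast at an r of 0.62 or more in size, which 12.1% of all genes tested also had. Peg10 (r = 0.86) and Ppp1r9a (0.71), whose exon lengths lie above the limit for long genes, and Casd1 (0.64) and Asb4 (0.65), of 4128 and 3474 exon bases, were higher where long genes were higher, and Sgce was lower (r = -0.62, but -0.23 on log2 TPM). Pon3, with 6610 exon bases, had r = -0.20 (adjusted permutation p = 0.412). The 5 relations passed at an adjusted p of at most 0.00325 (permutation test, 23 embryos). The closest pairs of members were Peg10 with Asb4 by r (r = 0.75, rho = 0.71, adjusted permutation p = 0.00468 for r) and Peg10 with Casd1 by rho (r = 0.67, rho = 0.73, adjusted permutation p = 0.00252 for rho). On log2 TPM the r values were 0.84 and 0.91. Among 17130 other genes, those with the pattern most like Peg10 over the 23 embryos were Nsd1 (r = 0.93), Hook3 (0.92) and Slc35e2 (0.91), and those most like Sgce included Rcn1 (0.84) and Syce2 (0.83). These values share libraries and scaling and are a description.

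Among the flanking members, Casd1 had the narrowest 95% interval in M-Z- against M+Z+ embryos of both sexes. The female M+Z+ and M-Z- means were 80.1 ± 5.81 and 83.0 ± 3.55 CPM (SD, n = 6 and 4), and the male ones 77.7 ± 2.92 and 78.4 ± 5.25 CPM (n = 4 and 3). Its log2 fold change in M-Z- embryos of both sexes was 0.05 ± 0.04, with a 95% interval of -0.03 to 0.13. Ppp1r9a likewise stood at 113 ± 10.03 and 112 ± 5.32 CPM in the same female groups and at 109 ± 14.8 and 109 ± 11.1 in the males, with a log2 fold change of 0.01 ± 0.06 and an interval of -0.10 to 0.13.

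Asb4 was the member with the highest fitted value in M-Z- embryos, 0.16 ± 0.07 on the log2 scale in both sexes (95% interval 0.00 to 0.31, unadjusted p = 0.0464, adjusted p = 0.181 by edgeR). Female M+Z+ embryos ranged from 52.8 to 72.6 CPM with a median of 67.3, and female M-Z- embryos stood at 70.7, 83.7, 70.7 and 69.6 CPM. Male M+Z+ embryos stood at 60.8, 56.3, 58.7 and 55.3 CPM and male M-Z- embryos at 76.4, 56.0 and 52.0 CPM. One embryo of each sex, female M-Z- replicate 2 and male M-Z- replicate 1, stood above all others of its sex, and the groups overlapped. Leaving out male M-Z- replicate 1 cut the value of Asb4 in both sexes to 0.07 (adjusted p = 0.577 by edgeR) and turned that in males from 0.13 to -0.04. Leaving out male M-Z- replicate 3 gave 0.21 in both sexes (adjusted p = 0.0429), still under the size for a call.

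Calcr and Tfpi2, the members with the fewest reads, had the widest intervals. Calcr was 1.16 to 2.69 CPM in female M+Z+ (median 2.23) and 1.42, 1.42, 1.599 and 0.841 CPM in female M-Z- embryos, which overlapped. The females gave a log2 fold change of -0.71 ± 0.26 (95% interval -1.25 to -0.16, unadjusted p = 0.0140, adjusted p = 0.198 by edgeR), the males one of -0.23 ± 0.29 (adjusted p = 0.708). The paper lists Calcr as decreased in M-Z- embryos of females only, by DESeq2 at p below 0.05 with no adjustment named. Its minimum log2 fold change was also 0.5. Of the members in females Calcr had the lowest fitted value, which did not pass the adjustment over all genes. Over the alternatives it ran from -0.85 to -0.33. The latter was the fit with a replicate block, which also kept only embryos numbered 1 to 3. The male value ran from -0.08 (without M-Z- replicate 1) to -0.50 (without M-Z- replicate 2). Tfpi2 stood at 3.38 ± 0.739 CPM in female M+Z+ and 2.77 ± 0.994 in female M-Z- embryos, and at 3.55 ± 0.628 and 2.51 ± 0.751 CPM in males. Its log2 fold change in both sexes was -0.37 ± 0.18 (95% interval -0.74 to 0.01, adjusted p = 0.194 by edgeR), and -0.21 for Tfpi2 with no M+Z+ embryo numbered below 4.

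Pon3 and Pon2 are neighbouring paraoxonase genes of one family, Pon3 being made mostly in liver and Pon2 in many tissues. Their promoters are shown because Pon3 had the lowest adjusted p of the members in M-Z- embryos and Pon2 is its neighbour of the same family. A difference between the fold changes of the pair was not tested. Each is RefSeq's 300 bases on GRCm38.p6, from 250 before to 50 after the start, 5′ to 3′ on the minus strand, with CpG dinucleotides, the bases that methylation marks, in capitals. Pon3 is chr6:5256184-5256483 and Pon2 is chr6:5298291-5298590.
Pon3: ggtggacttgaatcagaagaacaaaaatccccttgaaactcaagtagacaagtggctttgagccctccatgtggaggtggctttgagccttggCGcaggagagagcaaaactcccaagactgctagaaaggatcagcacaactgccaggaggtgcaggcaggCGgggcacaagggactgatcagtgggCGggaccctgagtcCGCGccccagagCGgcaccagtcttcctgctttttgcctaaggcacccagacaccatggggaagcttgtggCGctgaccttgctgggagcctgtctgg
Pon2: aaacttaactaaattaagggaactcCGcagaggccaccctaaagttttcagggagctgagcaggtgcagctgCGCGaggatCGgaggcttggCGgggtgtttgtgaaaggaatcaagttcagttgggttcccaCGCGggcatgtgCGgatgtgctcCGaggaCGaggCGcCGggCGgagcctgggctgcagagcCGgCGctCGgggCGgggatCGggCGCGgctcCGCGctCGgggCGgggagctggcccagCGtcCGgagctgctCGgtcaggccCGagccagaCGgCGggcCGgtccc
The Pon3 window held 7 CpGs, the median of all 32851 promoters, and the Pon2 window 31, above the upper quartile of 20. Windows of 7 members, all but Peg10 and Sgce, were matched by symbol. TGCCGC was searched on both strands and found once in Pon3, once in 1 of 2 windows of Casd1 and 2 times in 1 of 2 windows of Calcr, and in 11.6% of all promoters of this length. A match of letters is a description and not a binding site.

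Pon3 had the lowest adjusted p of all members. Female M+Z+ embryos ranged from 15.6 to 20.4 CPM with a median of 19.0 (n = 6), and female M-Z- embryos stood at 15.95, 14.4, 17.0 and 17.95 CPM. Male M+Z+ embryos stood at 19.2, 17.4, 20.6 and 18.04 CPM and male M-Z- embryos at 15.1, 9.90 and 17.1 CPM, all below the male M+Z+ embryos. Such a separation was found for 1 of 9 members and 10.8% of all genes in that comparison. In both sexes together the log2 fold change was -0.29 ± 0.08, with a 95% interval of -0.46 to -0.13 and an adjusted p of 0.0223 by edgeR (0.00735 by DESeq2). It was under the size needed for a call. Without that size, Pon3 alone of the 9 members passed, against 10.6% of all genes. Fitted by sex, Pon3 was at -0.19 ± 0.09 in females and at -0.40 ± 0.14 in males (edgeR, adjusted p = 0.308 and 0.193). The male value of Pon3 was -0.23 without M-Z- replicate 2. The female value was -0.35 with a replicate block on embryos numbered 1 to 3 and -0.08 with no M+Z+ embryo numbered below 4, and passed under neither (adjusted p = 0.101 and 0.767 by edgeR).

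The adjusted p of Pon3 by edgeR in both sexes depended on single embryos. It was 0.0824 at a log2 fold change of -0.21 after male M-Z- replicate 2 was left out, 0.0515 (-0.27) after female M-Z- replicate 2 and 0.0524 (-0.27) after male M+Z+ replicate 3, and 0.00352 (-0.37) after male M-Z- replicate 3. It was 0.514 (-0.20) if the M+Z+ groups held no embryo numbered below 4, which leaves 3 females and 1 male that is assumed to vary like the other groups. Leaving out male M-Z- replicate 3 gave a call of Pon3 in males, at -0.54 (adjusted p = 0.0354). Pon2 gave no such values. It stood at 28.9 ± 1.95 CPM in female M+Z+ and 29.9 ± 3.30 in female M-Z- embryos, and at 29.5 ± 1.34 and 27.0 ± 4.79 CPM in males, and its log2 fold change in both sexes was -0.02 ± 0.06 (95% interval -0.15 to 0.10). In M-Z+ embryos Pon3 was at -0.20 ± 0.08 in both sexes (unadjusted p = 0.0279, adjusted p = 0.290 by edgeR), and at -0.10 with no M+Z+ embryo numbered below 4.

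Liver RNA moved with the same groups. Of 10 liver markers, among them the plasma proteins Alb and Afp, 6 were called lower in M-Z- against M+Z+ embryos in the joint fit of both sexes (Alb, Trf, Afp, Apoa1, Fga and Fgb), 0 higher, and the median log2 fold change was -0.74. In either sex alone 0 were called by edgeR, with medians of -0.70 in females and -0.80 in males. Their summed level ran from 3807 to 8396 CPM in female M+Z+, from 3115 to 5354 in female M-Z+ and from 2897 to 4717 in female M-Z- embryos. For the males it was 5385 to 7937 CPM in M+Z+, 5167 to 6537 in M-Z+ and 2033 to 5171 in M-Z- embryos. Female M+Z+ sums were 4424, 7393 and 8396 CPM in replicates 1 to 3 and 3807, 4317 and 5592 CPM in replicates 4 to 6. Male M+Z+ replicate 4 had 5385 CPM, the lowest of its group. Male M-Z- replicate 2 had the lowest sum and the lowest Pon3. Of neuron and skeletal muscle markers, 0 of 10 each were called, with medians of -0.09 and -0.05 in the joint fit, where 10 of 10 neuron and 7 of 10 muscle markers lay below 0.

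Pon3 and the log2 liver sum had r = 0.81 and rho = 0.76 over 23 embryos (permutation p = 1e-05 for r, the smallest they can give, adjusted over 19 relations 6.33e-05). Without the 2 embryos farthest from the median sum r was 0.73, and it was 0.77 in females, 0.87 in males and 0.74 about the group means. Tfpi2 had r = 0.79 (0.74 about the group means) and Pon2 r = 0.58 (0.41 without the 2 farthest embryos and 0.83 about the group means), while Asb4 had r = -0.65 and Casd1 r = -0.59 (-0.22 on log2 TPM), all at adjusted permutation p-values of at most 0.00561. An r of 0.58 or more in size with the liver sum was found for 3078 of 17139 genes tested. Peg10 had r = -0.31 (adjusted permutation p = 0.185) but rho = -0.48 (0.0326), and r was -0.69 without the 2 farthest embryos, so for Peg10 the relation depended on the measure and on those embryos. Sgce had r = -0.14 and rho = 0.03 (adjusted permutation p = 0.548 and 0.897). The part of liver RNA in the values of Pon3 and Tfpi2 was not tested.

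**Figure D4:**
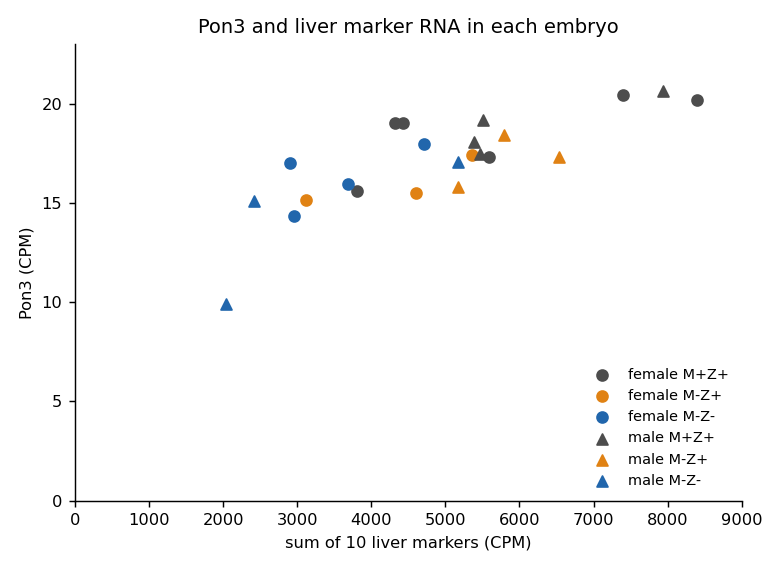
Pon3 (CPM, y axis) against the sum of 10 liver markers (CPM, x axis) in each of 23 embryos, with colours for the genotype, circles for females and triangles for males. Both rise together, and 2 male M-Z- embryos have the lowest liver sums.

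The sexes differed in no member beyond the adjustment. In M+Z+ embryos edgeR and DESeq2 called 0 of 9 members between females and males (against 0.0817% of all genes by edgeR), and 1 stood at an unadjusted p below 0.05 (4.92%). This was Peg10, at 509 ± 46.0 CPM in females (n = 6) and 459 ± 22.0 in males (n = 4), a log2 difference of 0.15 ± 0.06 (unadjusted p = 0.0278, adjusted p = 0.935 by edgeR). In replicates 1 to 3 Peg10 was 487, 459 and 458 CPM in females and 457, 461 and 432 CPM in males. In replicates 4 to 6 of the females it was 549, 554 and 545 CPM, against 486 CPM in male replicate 4. No member passed the test of a different genotype effect in the sexes, by the interaction in edgeR or DESeq2 (0 called, 0 at an unadjusted p below 0.05, against 0.0% called and 6.46% unadjusted of all genes in M-Z- by edgeR, and 0.0% and 3.65% in M-Z+). With 0 genes called in all, this does not show that the sexes responded alike. Without male M-Z- replicate 3, 2 members (and 2410 of 17341 genes) had an unadjusted p below 0.05 for the interaction in M-Z- by edgeR. The widest such intervals were those of Calcr, for females minus males -1.27 to 0.35 in M-Z- and -1.41 to 0.24 in M-Z+.

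Around the cluster, 16 neighbouring genes of proximal chromosome 6 were tested. In the joint fit of both sexes 0 were called in M-Z+ (against 0.0759% of all genes) and 1 in M-Z- embryos (2.31%). It was Samd9l, an interferon-induced gene, with means of 4.81 ± 0.874 and 4.05 ± 0.941 CPM in female M+Z+ and M-Z- and of 4.68 ± 0.998 and 2.68 ± 0.424 CPM in male M+Z+ and M-Z- embryos (log2 fold change -0.51 ± 0.14, adjusted p = 0.0211 by edgeR). The value lay at the size needed for a call, and the call was lost, at -0.45 to -0.49, when any 1 of 8 embryos was left out, namely female M+Z+ replicates 2, 4 and 6, female M-Z- replicates 2 and 4, male M+Z+ replicates 2 and 3 and male M-Z- replicate 2. With no M+Z+ embryo numbered below 4, Samd9l was at -0.30 (adjusted p = 0.547). The median of the 16 was -0.04. In M-Z- embryos 2 of the 16 were called with no minimum size (10.6% of all genes), and 2 without male M-Z- replicate 3.

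Allele-assigned reads, which are reads over variants between the strains of the mother and the father, were absent or nearly absent over the members, and the paternal share of the members was therefore not computed. Of the 9 members, 8 had 0 allele-assigned reads in each of the 23 embryos. Casd1 had 6 in all, each maternal, in 4 embryos, with at most 3 in any embryo, against 32850 counts. A share was to be computed from more than 10 such reads in an embryo, which 0 of 9 members reached. Peg10 alone had 203970 counts over the same embryos. A count of 0 allows up to 3 reads per embryo, which covers counting error only.

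Other genes with at least 1000 counts were compared. Between Tfpi2 and Casd1, Bet1 had 0 allele-assigned reads, Col1a2 had 1 against 710154 counts, and Gng11 had 13 against 7286. Outside the span of the members, Vps50 on the proximal and Pdk4 on the distal side had 0. Samd9l, farther on the proximal side, had 157 against 1730 counts, and 157 of them were maternal. Far on the distal side, Phf14 had 3096 allele-assigned reads, of which 0 were maternal. Every embryo had a 129 mother and a father mainly of the DBA strain, so parent and strain cannot be told apart. This limit holds for Samd9l, Phf14 and Casd1 alike. On the distal side reads set in at Dync1i1, which starts 978 kb from the start of Peg10, with 560 allele-assigned reads per 1000 counts, and at Slc25a13 with 327. Over all autosomal genes with at least 1000 counts, 33.0% had 0 allele-assigned reads, and the median was 29.1 per 1000 counts. On chromosome 6 alone, 39.2% of 691 such genes had 0, and the median was 7.21. The comparators were covered where the members were not, and their pooled paternal share in female embryos fell from 99.1% in M+Z+ to 45.6% in M-Z- for Plagl1, from 99.2% to 47.0% for Snrpn and from 96.8% to 51.2% for Usp29.

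**Figure D5:**
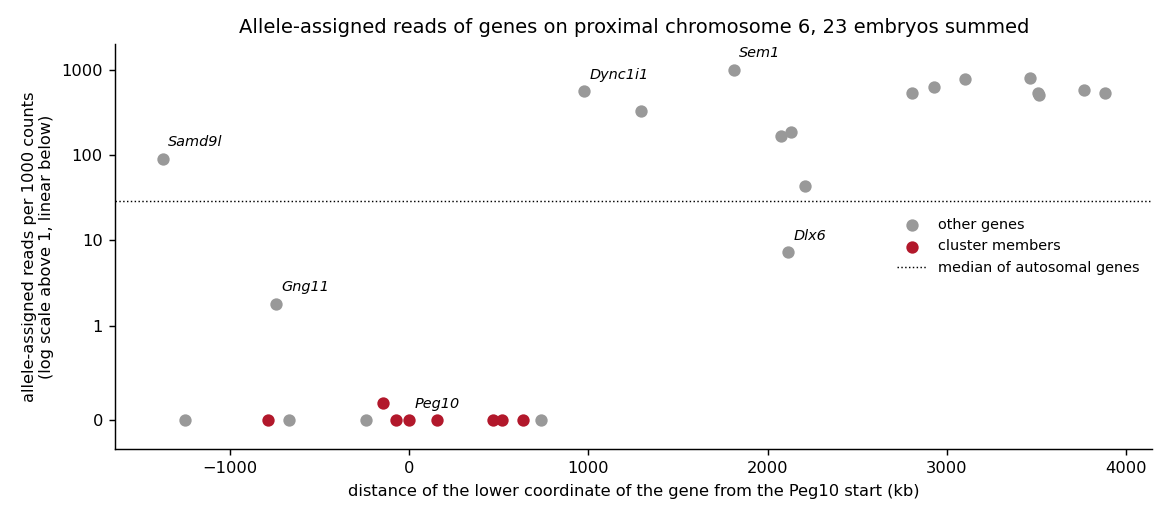
Allele-assigned reads per 1000 counts (y axis, linear below 1 and logarithmic above) of genes with at least 1000 counts, summed over 23 embryos, by the distance of the gene's lower coordinate from the Peg10 start (x axis, kb); the dotted line is the median of autosomal genes, 29.1. Members (red, all but Calcr, which had 682 counts) lie at or near 0, and genes from 978 kb onward lie mostly above 100.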

How the data were processed

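RNA of 13 female and 10 male E13.5 embryos was sequenced. The authors trimmed the reads, aligned them uniquely to mm9 with STAR 2.7.8a and counted them by strand with featureCounts (Subread 2.0.1), and the counts were deposited unscaled. For the allelic counts, the authors aligned to a genome masked at strain variants and split the reads with SNPsplit. TPM was computed here from the counts and the deposited exon length in bases. Columns headed WT were read as M+Z+ embryos. The paper labels these embryos in a primed and an unprimed series, and the replicate numbers of each series were not settled by the sources used here. Among female allelic columns, 4 M+Z+ embryos carried a header number that another embryo also carried, so they were not matched to replicates. The members, lists and added tests were chosen with earlier results of these data known. The genes named were the members, Zfp57, 3 comparators, the neighbours that were called, and the 3 genes most like Peg10 and Sgce, of which 1 is not reported here. Marker genes of the lists and the genes of the chromosome 6 allele-read map were also named, outside that rule and after their values were seen.

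Genotypes were compared within each sex, and in 1 fit of all embryos for both sexes together, the sex difference and the interaction, with edgeR 4.0.16 (TMM, filterByExpr, glmQLFit and glmQLFTest, Benjamini-Hochberg adjustment over all genes) in R 4.3.3. The call threshold was an adjusted p of 0.05 with a log2 fold change of 0.5 or more (0.3 between sexes, none for the interaction). The fits of M-Z- against M+Z+ were tested on simulated data. Of genes given a log2 change of 0.5, 72% in females and 50% in males reached an adjusted p below 0.05 by edgeR. In both sexes together it was 83%. For a change of 1 the shares were 93%, 87% and 98%. A member with a change near 0.5 could therefore be missed, above all in males. Log2 CPM used a prior count of 0.5, and permutation tests over embryos used 100000 permutations or exact enumeration. The planned tests of allele shares were not run, because the members had too few allele-assigned reads. Total counts were 15.2 to 24.1 M and allele-assigned reads 2.46 to 3.94 M per embryo, so a count of 0 allows 0.125 to 0.198 CPM, for counting error only. Alternatives were DESeq2, RLE scaling, other filters, no minimum size, fewer groups or embryos, and a replicate block.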

Additional observations from a re-analysis of the deposited data

Results flagged for a closer look

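In 30 groups of 4 to 6 embryos, 2 values of members stood farther from the other embryos of their group than Dixon's 95% limit, where chance flags about 1 in 20 groups. Ppp1r9a was 120 CPM in female M-Z- replicate 4 against 110 CPM in the next embryo, with the lowest at 110 CPM. Asb4 was 83.7 CPM in female M-Z- replicate 2 against 70.7 CPM in the next embryo, with the lowest at 69.6 CPM.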

How the results depend on the processing

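The number of called members stayed at 0 in 196 of 198 alternatives over 11 comparisons. It was 1 (Pon3) in M-Z- against M+Z+ embryos of both sexes with no minimum log2 fold change. In males it ranged from 0 to 1 when each embryo was left out, being 1 (Pon3) without male M-Z- replicate 3, where 899 genes were called in all. Of 1782 fitted values of single members under the alternatives, 122 changed sign. None of these was called, and their main values lay between -0.22 and 0.19. Deviations of same-numbered embryos of the same sex from their group means had correlations of -0.23 to 0.39. Embryos of different numbers were not compared in this way, so a pairing by replicate number was not tested. With the replicate block, on embryos numbered 1 to 3, 0 members were called in each of 6 comparisons, and in M-Z- against M+Z+ all genes called numbered 139 (females) and 123 (males) in place of 95 and 65. The number of all genes called moved by over 1.5 times in several alternatives. In M-Z- against M+Z+ females it was 148 with DESeq2, 212 with no minimum size and 55 to 116 without 1 embryo. In males it was 184 with DESeq2, 99 with no filter, 3 with M+Z+ embryos numbered 4 and above only (a setting with 3 female M+Z+ embryos and 1 male, assumed to vary like the other groups), 40 with only the compared groups and 41 to 899 without 1 embryo. In both sexes it was 396, against 1825 with no minimum size, 56 with M+Z+ embryos numbered 4 and above only and 212 to 819 without 1 embryo. In M-Z+ against M+Z+ it was 10 in females (3 with only the compared groups, 43 with the block, 5 to 12 without 1 embryo), 8 in males (13 with DESeq2, 0 with M+Z+ numbered 4 and above, 41 with the block, 0 to 54 without 1 embryo) and 13 in both (7 with DESeq2 or with M+Z+ numbered 4 and above, 9 to 100 without 1 embryo). Between M-Z- and M-Z+ males it was 25 (57 with DESeq2, 16 with only the compared groups or M+Z+ numbered 4 and above, 17 to 376 without 1 embryo). The ratio of Peg10 to Sgce in M-Z- against M+Z+, which passed no test, changed sign in 5 leave-one-out settings. Among relations between members, that of Pon2 with Casd1 turned from -0.50 to 0.29 on log2 TPM. The planned tests of allele shares could not be fitted, because the members had too few allele-assigned reads. The wide intervals of Calcr and Tfpi2 go with their low counts.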
